A study of Caenorhabditis elegans with 2 samples.

Results

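Divergent promoters, where 2 protein-coding genes start close together on opposite strands, held 175 of the 2454 autosomal peaks of a daf-19::EGFP chromatin immunoprecipitation that passed a minimum reproducibility (7.13%). Across all chromosomes 3086 of 117986 ranked peaks passed. The members were chosen by 3 values. The deposited −log10 irreproducible discovery rate (IDR), which scores whether a peak recurs between replicates, had to be 1.3 or more, that is an IDR of about 0.05 or less. The summit had to lie more than 200 bp from any tRNA, snRNA, snoRNA or rRNA gene, and from 1000 bp upstream to 200 bp downstream of transcript starts of at least 2 protein-coding genes on opposite strands. Because the signal of a peak is bound up with its IDR, signals and IDR values of these peaks are given as a description, with no test. Another 711 autosomal peaks lay in promoter windows of 1 strand only, 1358 lay outside promoter windows, and 210 were no more than 200 bp from a small RNA gene.

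The samples were 2 biological replicates. Each was made from entire larvae of the L4 stage at 48 hours, synchronised as starved L1 larvae after bleaching. Both were of the strain OP794, which carries the transgene wgIs794 (daf-19 with TY1, EGFP and 3xFLAG tags, together with unc-119(+)) in an unc-119(tm4063) background. Chromatin was sonicated to between 200 and 800 bp and the tagged protein was pulled down by antibodies to GFP. There was 1 group and no second condition. Whole animals were used, so the cells in which a site was bound cannot be told apart. No file gives reads, so depth is unknown and a peak's signal has no interval. The labels do not say how the cultures were grown, so agreement between the replicates may be technical.

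DAF-19, a transcription factor of the RFX family in Caenorhabditis elegans, is known for binding the X-box, a promoter element of genes for sensory cilia. A divergent, or head-to-head, arrangement lets 1 stretch of DNA serve as the promoter region of both neighbours, and a peak there cannot by its position be assigned to either gene. Annotated starts of nematode genes are often trans-splice sites, where a leader RNA replaces the first part of the transcript, so the true start of transcription can lie further upstream.

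The 6 strongest summits are shown first because the later results on gene groups and sequence refer to them. The sequences are the plus strand of the WBcel235 (ce11) assembly as given by RefSeq, 5′ to 3′. The strongest peak lay between the HSP70 family genes F44E5.4 and F44E5.5, at chrII:11759335-11759564, and is printed whole. Capitals mark its 5 copies of the heat shock element core TTCNNGAA. In the 5 windows after it, 151 bp centred on the summit, capitals mark six-letter words that were found at a different share of divergent than of one-strand summits, as given further on. These are rpl-20 and Y17G9B.5 (chrIV:4749987-4750137), K01G5.10 and tasp-1 (chrIII:10759176-10759326), rpl-15 and K11H12.8 (chrIV:654872-655022), nhl-2 and tag-340 (chrIII:4899837-4899987) and larp-1 and wip-1 (chrIII:5018226-5018376).
F44E5.4 and F44E5.5: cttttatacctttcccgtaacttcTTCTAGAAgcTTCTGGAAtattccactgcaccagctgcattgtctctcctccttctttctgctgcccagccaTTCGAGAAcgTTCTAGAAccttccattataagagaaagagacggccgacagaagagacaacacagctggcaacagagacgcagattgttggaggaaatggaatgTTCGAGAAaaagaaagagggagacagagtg
rpl-20 and Y17G9B.5: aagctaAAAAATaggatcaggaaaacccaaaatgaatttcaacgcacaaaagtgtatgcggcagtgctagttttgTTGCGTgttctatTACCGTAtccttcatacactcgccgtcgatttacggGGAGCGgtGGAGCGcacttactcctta
K01G5.10 and tasp-1: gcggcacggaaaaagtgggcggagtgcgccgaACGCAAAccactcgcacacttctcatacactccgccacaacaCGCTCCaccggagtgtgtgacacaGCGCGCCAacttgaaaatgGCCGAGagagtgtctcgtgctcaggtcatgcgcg
rpl-15 and K11H12.8: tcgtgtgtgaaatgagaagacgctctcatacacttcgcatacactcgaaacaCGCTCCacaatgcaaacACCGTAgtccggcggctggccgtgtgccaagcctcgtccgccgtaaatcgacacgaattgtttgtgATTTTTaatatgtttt
nhl-2 and tag-340: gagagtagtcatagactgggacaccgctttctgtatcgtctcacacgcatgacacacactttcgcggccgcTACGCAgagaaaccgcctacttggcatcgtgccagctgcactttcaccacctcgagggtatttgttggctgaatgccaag
larp-1 and wip-1: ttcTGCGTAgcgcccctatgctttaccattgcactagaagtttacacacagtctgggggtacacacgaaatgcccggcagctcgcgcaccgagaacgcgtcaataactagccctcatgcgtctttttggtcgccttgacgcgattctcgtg

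A second set shows the motif matches discussed below, in capitals, with 20 bp on each side. The first 4 lines hold a three-unit heat shock element, in which the unit GAA and its reverse complement TTC alternate, 3 units in all. They lie at chrIII:1619025-1619077, chrIII:4419546-4419598, chrIII:8446992-8447044 and chrIII:8447114-8447166. The last 2 lines hold an X-box, at chrIII:10460681-10460734 and chrIII:188380-188433.
Y22D7AL.10 and hsp-60: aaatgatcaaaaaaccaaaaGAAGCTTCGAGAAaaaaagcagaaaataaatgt
R07E5.7 and cku-80: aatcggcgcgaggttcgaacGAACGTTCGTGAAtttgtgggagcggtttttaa
hsp-110 and rpn-3, first site: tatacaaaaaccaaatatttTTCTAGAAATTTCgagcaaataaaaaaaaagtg
hsp-110 and rpn-3, second site: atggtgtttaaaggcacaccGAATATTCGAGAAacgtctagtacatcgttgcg
ecps-1 and atx-2: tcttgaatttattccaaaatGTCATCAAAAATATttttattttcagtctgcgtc
mxl-2 and ubc-20: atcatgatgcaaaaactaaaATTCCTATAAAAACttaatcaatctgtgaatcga

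The 175 peaks lay at 165 gene pairs and 348 genes, and 19 peaks also lay in the window of another gene. Overlapping peaks merged into 169. At 10 gene pairs there were 2 peaks each. At the pairs of lron-10, arrd-19, ash-2, prp-19, lin-28 and dyf-2, the second peak overlapped the first and had a signal under 40. Both peaks of each of these pairs had the same rounded −log10 IDR. Divergent windows made up 2.67% of autosomal bases (2.21 Mb) and held 7.13% of the peaks, or 79.3 peaks per Mb. One-strand windows held 35.3 peaks per Mb, bases outside promoter windows 22.7 per Mb, and bases within 200 bp of small RNA genes 531 per Mb. These densities place divergent promoters above one-strand promoters and below small RNA genes. They describe 1 set of peaks in 1 genome and were not tested.

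Chromosome III carried 54 of the 175 peaks (30.9%), against 19.3% of the one-strand peaks and 16.5% of the divergent window bases. The density was 148 peaks per Mb of divergent window on III, 90.7 on I, 66.9 on II, 62.2 on IV and 50 on V. Median signals by chromosome ran the other way for III, which had the lowest at 95.5, while IV had the highest at 111.

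The pooled signal had a median of 101 over the divergent promoter peaks (quartiles 88.3 and 126, range 2.05 to 711), in the authors' units. The median was 95.9 over one-strand promoter peaks, 92.8 over peaks outside promoter windows and 133 over those at small RNA genes. There were 14 divergent promoter peaks with a signal of 200 or more, 75 from 100 to 200, 79 from 40 to 100 and 7 under 40. All of those 7 overlapped a stronger peak. They lay at lron-10 and hpr-9 (16.8), arrd-19 and F35F10.1 (13.7), R107.5 and cls-2 (8.26), Y17G7B.20 and ash-2 (5.42), prp-19 and K10D2.5 (4.37), lin-28 and F02E9.7 (3.40) and dyf-2 and sid-2 (2.05). Of the 175, 169 were 380 bp wide, the width of most peaks in the list.

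At 162 members both replicates had a ranked peak of their own over the summit, at 9 only 1 replicate had, and at 4 neither had. All 7 members with a signal under 40 were among these 13, and the highest signal among the 13 was 88.5. Over the 162, replicate 1 signals had a median of 55.4 (39.4 to 403) and replicate 2 signals one of 49.6 (34.1 to 318). The ratio of replicate 1 to replicate 2 had a median of 1.14 and ran from 0.593 to 2.42. Replicate 1 was higher at 107 of the 162, and at 138 the ratio lay within 1.5-fold either way. Since the scaling of the signals is not stated, the ratio is no measure of binding. Spearman's rho between the replicates was 0.43 across the 162 divergent peaks, 0.28 across 653 one-strand peaks, 0.00 across 1239 peaks outside promoter windows and 0.69 across 198 at small RNA genes. These are descriptions over peaks that share 2 libraries and a reproducibility minimum.

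**Figure D1:**
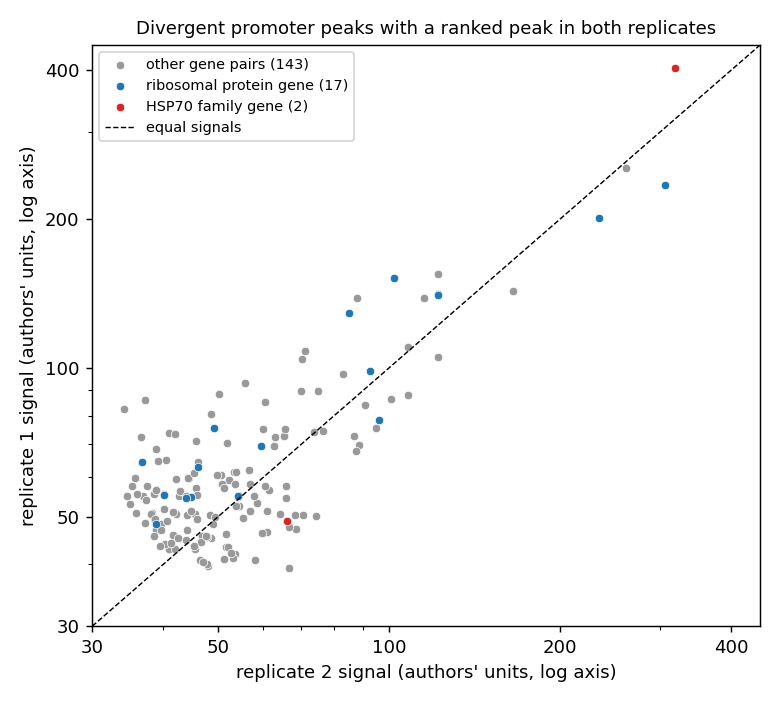
Replicate 1 signal against replicate 2 signal (authors' units, log axes) for the 162 divergent promoter peaks with a ranked peak in both replicates; each point is 1 peak, and the dashed line marks equal signals. The F44E5.4 and F44E5.5 peak stands at 403 and 318, the ribosomal protein gene peaks reach 234 in replicate 1 and 305 in replicate 2, and most peaks lie under 100 in both replicates.

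The 5 largest ratios of replicate 1 to replicate 2 were at C47E8.4 and hsp-90 (82.5 and 34.1), eef-1A.1 and rfc-4 (86.1 and 37.1), syf-2 and K04G7.1 (72.4 and 36.6), mtch-1 and rpb-4 (73.7 and 41.0), and cct-6 and alh-9 (68.5 and 38.8). Here hsp-90 codes for the HSP90 chaperone, eef-1A.1 for a translation elongation factor, rpb-4 for an RNA polymerase II subunit and cct-6 for a chaperonin subunit. The 5 smallest were at algn-13 and R10D12.13 (39.4 and 66.5), F35G12.7 and smc-4 (50.1 and 74.3), rnf-121 and C16C10.4 (47.1 and 68.4), htp-1 and ZK616.5 (40.9 and 58.0), and clsp-1 and eef-2 (50.4 and 70.5). All 10 had pooled signals from 92.2 to 133, and none was among the strongest 15.

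An IDR of 0.01 or less, a −log10 value of 2 or more, was reached by 78 of the 175 (44.6%), against 35.3% of one-strand promoter peaks and 31.8% of all autosomal peaks past the minimum. A thresholded peak of each replicate's own list lay over the summit at 21 (12%), against 38 one-strand peaks (5.34%) and 6.64% of all autosomal peaks. At 12 members only replicate 1 had one, at 9 only replicate 2, and at 133 neither. Both shares come from the same IDR calculation or the same reads as the minimum that chose the peaks, so nothing is read from them. In the second ranked list of the series, made from the same 2 replicates, 132 members (75.4%) had a peak past the same minimum.

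Just inside the minimum were gly-9 and smc-3 (−log10 IDR 1.305, signal 93.9), csa-1 and wdfy-2 (1.308, signal 81.0) and ints-11 and F10B5.2 (1.312, signal 89.6). Just outside were rpl-28 and mrpl-49 (1.299, signal 83.8), mig-5 and cct-1 (1.294, signal 99.4) and col-161 and srh-18 (1.278, signal 101).

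Most summits lay between the starts. Relative to the nearest start on each strand, 135 of 175 summits (77.1%, 95% Wilson interval 70.4 to 82.7, counting error only) were upstream of both genes, and 40 were inside 1 of them by up to 200 bp. Downstream of the nearest start lay 22.9% of divergent and 23.1% of one-strand summits. Windows reached 1000 bp upstream of a start but only 200 bp downstream, so the rule sets part of these shares. By the annotation, 116 summits (66.3%) were outside protein-coding genes, 24 in coding sequence, 19 in introns and 16 in untranslated or other exons. Of one-strand summits 43.9% were outside protein-coding genes. The windows of the rule set part of this difference, because a divergent window is mostly the space between genes.

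The distance between the starts had a median of 541 bp (quartiles 332 and 819, range 12 to 1689). Among the 135 summits between starts, the nearer start was a median of 161 bp away and the farther one 440.0 bp. The median offset from the midpoint was 99.0 bp (quartiles 45 and 195), and 69 summits were within 100 bp of it. When the distance was cut into 3 equal parts, the middle one held 65 of the 135 (48.1%). At distances over 1000 bp the windows of the rule reach only the central part of the space. This raises that share by construction, so no preference for the middle is read from it. The minus-strand gene was the nearer one at 63 and the plus-strand gene at 72. Replicate summits were shifted from the pooled one by a median of 21 bp in replicate 1 and 28.0 bp in replicate 2, which is less than the median offset from the midpoint.

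**Figure D2:**
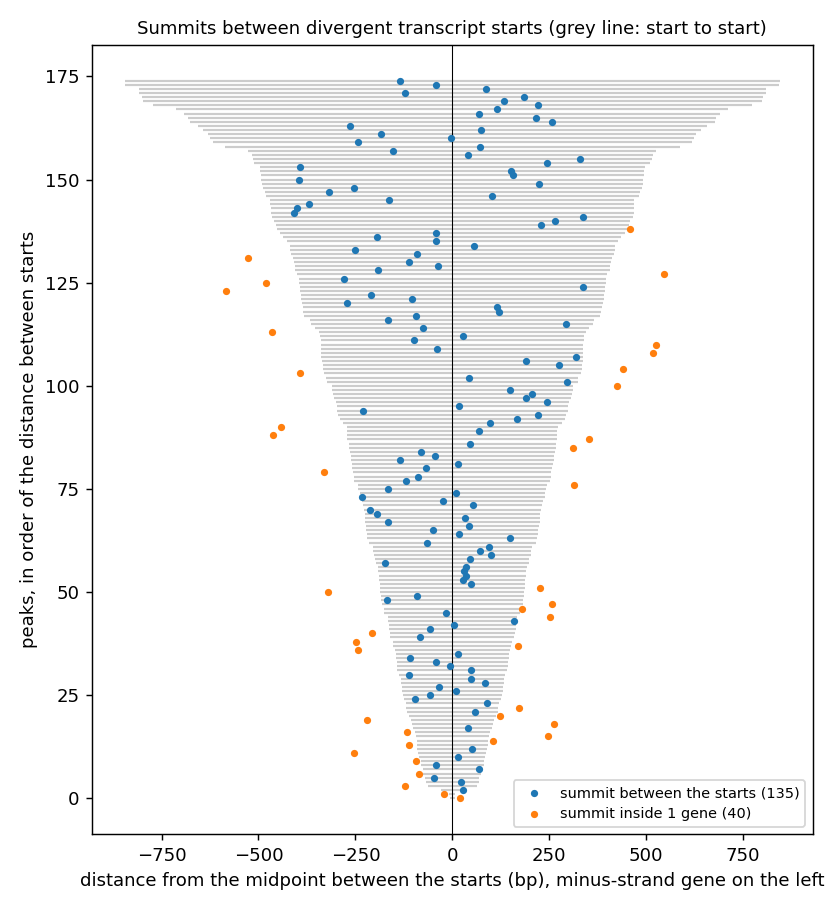
Each row is 1 of the 175 divergent promoter peaks, in order of the distance between the starts; the grey line runs from the minus-strand start (left) to the plus-strand start (right), in bp from their midpoint, and the point is the summit. Blue points are the 135 summits between the starts and orange points the 40 inside 1 gene.

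The shortest distances were at F32D8.14 and F32D8.5 (12 bp, signal 98.1), F25H9.6 and F25H9.7 (15 bp, 114), F01F1.11 and F01F1.3 (61 bp, 88.4), rab-18 and kbp-4 (126 bp, 92.9) and clpp-1 and mdt-22 (136 bp, 123). Here rab-18 codes for a small GTPase, kbp-4 for a kinetochore protein, clpp-1 for a mitochondrial protease subunit and mdt-22 for a Mediator subunit. The longest were at E01A2.8 and R12E2.14 (1689 bp, 101), nmy-2 and T22C1.1 (1687 bp, 87.4), both peaks of lin-28 and F02E9.7 (1618 bp, 89.5 and 3.40), and F26E4.4 and F26E4.7 (1600 bp, 81.0). nmy-2 codes for a nonmuscle myosin and lin-28 for an RNA-binding protein of developmental timing. Apart from the second lin-28 peak, the signals at both ends ran from 81.0 to 123.

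For a view over all such promoters, the 2382 neighbouring head-to-head pairs of autosomal genes whose outermost starts lie up to 2000 bp apart were counted. A member summit lay between the starts, or within 200 bp of them, at 148 pairs (6.21%). The share was 37 of 489 pairs (7.57%) up to 300 bp apart, 56 of 583 (9.61%) from 300 to 600 bp, 40 of 593 (6.75%) from 600 to 1000 bp and 15 of 717 (2.09%) from 1000 to 2000 bp. Beyond 1000 bp the windows of the rule cover only part of the space between the starts, which lowers the last share by construction. Pairs with closer starts offer less sequence in which a summit could be counted, which lowers their shares by construction too.

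**Figure D3:**
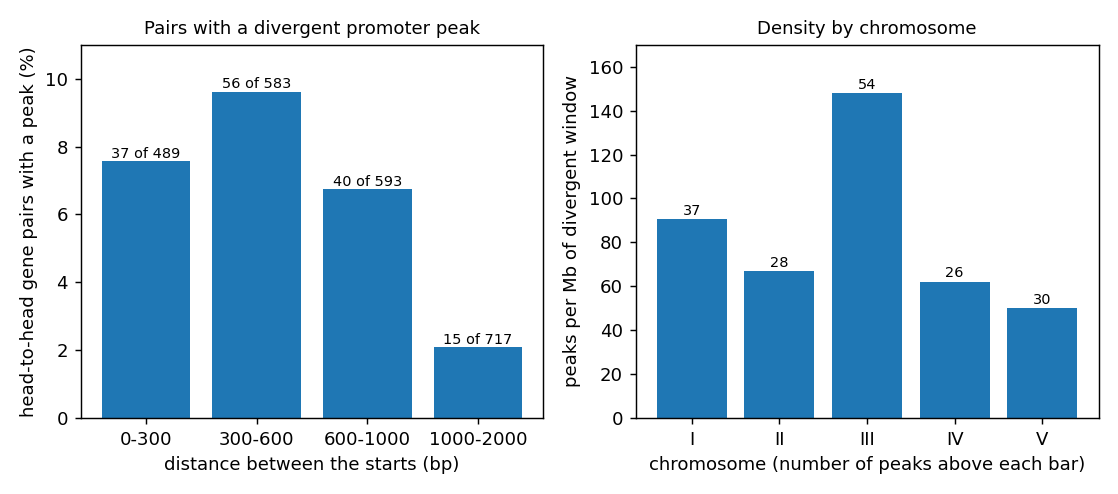
Left, the percentage of neighbouring head-to-head gene pairs with a divergent promoter peak, by the distance between their starts in bp. Right, divergent promoter peaks per Mb of divergent window by chromosome, with the number of peaks above each bar. The share is highest at 300 to 600 bp (9.61%), with no correction for the length of sequence counted at each distance. Chromosome III has the highest density (148 peaks per Mb).

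The strongest divergent promoter peak had a pooled signal of 711, with 403 in replicate 1 and 318 in replicate 2. Its summit lay 158 bp upstream of F44E5.4 and 193 bp upstream of F44E5.5, close to the middle of the 351 bp between these HSP70 family chaperone genes. Next came the peak between the large-subunit ribosomal protein gene rpl-20 and Y17G9B.5, with 539 (234 in replicate 1 and 305 in replicate 2). Its summit lay 284 bp upstream of rpl-20 and 178 bp upstream of Y17G9B.5. The peak of K01G5.10 and tasp-1, which codes for a threonine aspartase, had 508 (253 and 261 in replicates 1 and 2) and lay 56 bp upstream of tasp-1 and 729 bp from K01G5.10. A second peak of this pair, at chrIII:10758142-10758521, had 103. The peak of rpl-15, another large-subunit ribosomal protein gene, and K11H12.8 had 449 (201 in replicate 1 and 234 in replicate 2), at 371 and 443 bp from the starts. A snoRNA gene lay 586 bp from that summit.

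The next peaks fell in a narrower range. The pair nhl-2 and tag-340 had 293 (143 in replicate 1 and 165 in replicate 2). nhl-2 codes for a TRIM-NHL RNA-binding protein. larp-1, for a La-related RNA-binding protein, and wip-1 had 266 (155 and 122 in replicates 1 and 2). aka-1, an A-kinase anchor protein gene, and ubc-6, for a ubiquitin-conjugating enzyme, had 265 (138 in replicate 1 and 115 in replicate 2). In this peak 33.3% of 36-base pieces occur elsewhere in the genome, so reads there may have been shared. rpl-7A and set-21 also had 265 (141 and 122 in replicates 1 and 2), with a snoRNA gene 352 bp from the summit.

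Of the remaining 7 of the strongest 15, 4 paired a ribosomal protein gene with another gene. ifet-1, for a translational repressor, and rps-1 had 261, rpl-12 and lin-54, a DREAM complex gene, had 247, rps-20 and ekl-4 had 201, and rps-19 and hsr-9 had 194. The other 3 paired chaperone or transport genes with a neighbour. cct-8, for a chaperonin subunit, and Y55F3AR.2 had 231, Y22D7AL.10 and hsp-60, the mitochondrial chaperonin gene, had 222, and icd-1, for a subunit of the nascent polypeptide-associated complex, and the ESCRT-III gene vps-32.1 had 219. All 15 summits lay between the starts and under a thresholded peak of both replicates. Replicate 1 was higher at 10 of the 15, with ratios from 0.767 to 1.58.

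Gene groups were counted among genes with a divergent window, so that each gene could have had such a peak. A member peak lay in the window of 348 of these 5507 autosomal genes (6.32%), and 96 of the 348 were in 1 of 21 lists. At 21 peaks both genes were in a list. A peak counts for both genes of its pair, so lists that share pairs are not independent, and the counts are descriptions.

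Cytosolic ribosomal protein genes stood highest among the lists of more than 4 such genes, with 19 of 53 (35.8%), at 18 peaks. Their signals had a median of 119 per gene and ran from 66.7 (rps-22, opposite polh-1) to 539 (rpl-20). Below those among the strongest 15 were rps-12 (176, opposite ska-3, with a snoRNA gene 212 bp from the summit), rpl-5 (126, opposite the cuticle collagen gene col-38), rps-23 (119), rps-15 (113) and rps-6 (106). The pair rpl-36 and rps-14, both ribosomal, shared 1 peak of 101. The others were rpl-9 (94.4, opposite lpd-7), rps-13 (88.0), rps-0 (87.4) and rpl-34 (82.4). A snoRNA gene also lay 710 bp from the rps-23 summit and 671 bp from the rps-13 summit. Of the 18 peaks, 12 had an IDR of 0.01 or less and 7 lay under a thresholded peak of both replicates. The rps-22 peak had a ranked peak in replicate 1 (45.8) and none in replicate 2.

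The ribosomal protein start was the nearer one for 11 of the 19 genes, and summits were a median of 243 bp upstream of it, against 222 bp upstream of the opposite start. The range ran from 61 bp inside rps-14 to 724 bp upstream of rpl-36. A one-strand promoter peak lay at 14 of the 79 ribosomal protein genes on the autosomes. No share over all genes stands beside this count, so nothing is read from it.

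Translation factor genes had 5 of 25 (20%): iff-2, an eIF5A gene (154), eef-1A.1 (125), eef-2 (122), the release factor gene erfa-3 (98.6) and eef-1G (85.7). A snoRNA gene lay 655 bp from the iff-2 summit. Mitochondrial ribosomal protein genes had 3 of 30 (10%), namely mrpl-45 (113), mrpl-12 (111) and mrps-6 (105). Aminoacyl-tRNA synthetase genes had 0 of 15. In the nucleolus list, 2 of 31 (6.45%) had a peak: fib-1, the fibrillarin gene (133), which shares its peak with the small RNA pathway gene mut-15, and lpd-7 (94.4). Among the lists around translation, the shares ran from 35.8% to none, on both sides of the 6.32% over all genes.

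Of 4 HSP70 family genes with a divergent window, F44E5.4, F44E5.5 and hsp-110 had a peak. hsp-110 shares its peak with the proteasome gene rpn-3 (93.7, with 48.9 in replicate 1 and 66.0 in replicate 2). Other chaperone genes had 5 of 35 (14.3%): cct-8 (231), hsp-60 (222), dnj-29, for a J-domain protein (138), hsp-90 (119) and cct-6 (95). Proteasome genes had 3 of 24 (12.5%), rpn-8 (105), rpn-3 and rpn-9 (84.9), all of the regulatory particle. The ubiquitin system had 4 of 36 (11.1%), with ubc-6 (265), usp-3 (106), ubc-20 (89.7) and uba-5 (88.5).

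Histone genes, many of which are arranged head to head, had 6 of 65 (9.23%). The pair his-67 and his-68 had 164 (89.6 in replicate 1 and 74.9 in replicate 2) and the pair his-61 and his-62 had 102 (73.4 and 42.0 in replicates 1 and 2). his-46 had 94.1, with its summit 802 bp upstream, and 29.9% of the 36-base pieces of this peak occur elsewhere. htz-1, the H2A.Z variant gene, had 67.7, with a ranked peak in replicate 2 (41.4) and none in replicate 1. Its summit lay 4 bp from the start of wapl-1, a cohesin release gene, and 472 bp from htz-1.

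Splicing genes had 8 of 54 (14.8%), led by the SR protein genes rsp-2 and rsp-1, which share 1 peak (187), then prp-19 (131) and prpf-4 (114). rsp-5 and snr-3, a pair of splicing genes, shared a peak of 93.0. Nuclear pore and transport genes had 5 of 27 (18.5%), with the importin gene imb-1 (110.4), npp-6 (109), the mRNA export gene nxf-1 (95.8) and npp-27 (90.5) the highest. RNA polymerase and general factor genes had 2 of 30 (6.67%), mdt-22 (123) and rpb-4 (108).

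Genes of the respiratory chain and citric acid cycle had 6 of 37 (16.2%), led by coa-5, for an assembly factor of cytochrome oxidase (186), mev-1, for a succinate dehydrogenase subunit (144), idhg-1, for an isocitrate dehydrogenase subunit (122), and atp-3, for an ATP synthase subunit (116). Germline granule and small RNA pathway genes had 6 of 36 (16.7%), led by car-1 (186), which shares its peak with coa-5, then the Argonaute gene alg-5 (164), mut-15 (133) and ekl-1 (114). The alg-5 peak is that of his-67 and his-68, with its summit 946 bp upstream of alg-5. The P granule gene pgl-1 had 104. Chromatin genes had 5 of 40 (12.5%), with set-21 (265), lin-54 (247), lin-53 (164) and jmjd-4 (144) the highest. The first 2 of these share their peaks with rpl-7A and rpl-12.

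Cell division genes had 5 of 62 (8.06%), with the condensin gene smc-4 (133), emb-1 (131), the centrosome gene spd-5 (109) and the cohesin gene smc-3 (93.9) the highest. The emb-1 peak is that of prp-19 and K10D2.5, with its summit 738 bp upstream of emb-1. DNA replication and repair genes had 3 of 45 (6.67%), rfc-4 (125), lig-4 (80.1) and polh-1 (66.7). The lig-4 peak is that of cux-7 and C07H6.2, with its summit 579 bp upstream of lig-4. Vesicle traffic genes had 4 of 68 (5.88%), vps-32.1 (219), sec-61.B (128), rab-5 (128) and rab-18 (92.9).

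Ciliary genes, the known targets of DAF-19, had 1 of 25 (4.0%). This was dyf-2, for a component of intraflagellar transport, opposite sid-2, a gene for uptake of double-stranded RNA. Its peak had 89.1, with 55.5 in replicate 1 and 40.2 in replicate 2, and the summit lay 101 bp upstream of dyf-2. The −log10 IDR was 1.68, and no X-box consensus lay within 100 bp of the summit. Of the 82 ciliary genes on the autosomes, 5 had a one-strand promoter peak. As with the ribosomal protein genes, no share over all genes stands beside this count, so nothing is read from it. Cuticle collagen genes had 1 of 47 (2.13%), col-38, on the peak it shares with rpl-5.

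**Figure D4:**
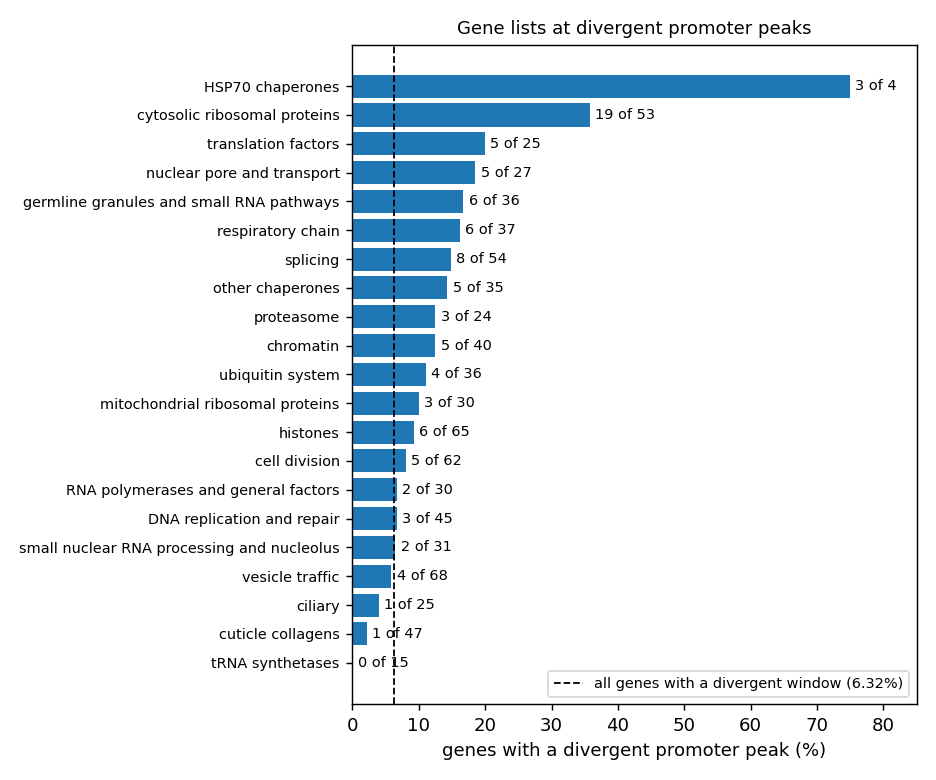
Percentage of the genes with a divergent window that had a divergent promoter peak, for 21 gene lists; the numbers beside the bars are genes with a peak and genes with a window, and the dashed line is the share over all 5507 genes (6.32%). Cytosolic ribosomal protein genes have 19 of 53, ciliary genes 1 of 25.

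Whether divergent promoter peaks hold the X-box more or less often than one-strand promoter peaks was tested, since the rule did not use sequence. Windows of 201 bp centred on the summit were scanned, on both strands, for the 14-base X-box consensus. It was found at 3 of 175 divergent summits (1.71%, Wilson interval 0.585 to 4.92) and 12 of 711 one-strand summits (1.69%, 0.968 to 2.93). The difference did not pass (two-sided Fisher's exact test, p = 1.00), and the interval at divergent summits still allows a share of several percent. Windows 1000 bp to either side of the divergent summits held it at 3 of 350 (0.857%). Windows at the midpoint of head-to-head pairs with no member held it at 42 of 2214 (1.90%).

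The 3 peaks with an X-box were those of mlcd-1 and idhg-1 (122, with 60.6 in replicate 1 and 50.6 in replicate 2), ecps-1 and atx-2 (93.6, with 42.0 and 53.6 in replicates 1 and 2), and mxl-2 and ubc-20 (89.7, with 42.9 in replicate 1 and 40.9 in replicate 2). All 3 were on chromosome III, and none of the 6 genes is in the ciliary list. The match lay 3 bp from the summit at mxl-2 and 12 bp at ecps-1, as printed above, and 57 bp at idhg-1, where the summit lay in an untranslated or other exon. With 1 mismatch allowed, 17.1% of divergent and 22.9% of one-strand summits held a match.

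Other motifs were counted in the same windows and on both strands. The GC box GGGCGG was in 20 of 175 divergent windows (11.4%), 5.63% of one-strand windows, 3.14% of the windows beside the divergent summits and 4.88% of pairs without a member. Neither it, as its reverse complement CCGCCC, nor the E-box passed in the survey of six-letter words described below. The unadjusted p of CCGCCC was 0.0108 and its adjusted p 0.324 (Fisher's exact test). The E-box CACGTG was in 5.71% of divergent and 4.08% of one-strand windows (adjusted p = 0.863, same exact test). The other motifs were not tested. The GA repeat GAGAGAG was in 4.0% of divergent and 7.03% of one-strand windows. The heat shock element core TTCNNGAA was in 16% of divergent windows and 14.1% of one-strand windows, and its share beside the divergent summits was 16.3%.

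The three-unit heat shock element, a longer form that contains that core, was in 5 divergent windows (2.86%, Wilson interval 1.23 to 6.51) and 6 one-strand windows (0.844%, 0.387 to 1.83). Pairs without a member had it in 1.67% and windows beside the divergent summits in 0.857%. Of the 5, 3 were at chaperone genes. F44E5.4 and F44E5.5 had 5 sites, of which 3 overlap, in the whole peak printed above. hsp-60 had 1, at 93 bp from the summit, and hsp-110 had 2, at 62 and 60 bp to either side of it. The other 2 were R07E5.7 and cku-80, for a Ku subunit of DNA repair (115, with 61.5 in replicate 1 and 53.8 in replicate 2), and F25H9.6 and F25H9.7 (114). A match of letters does not show that a heat shock factor was bound there.

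**Figure D5:**
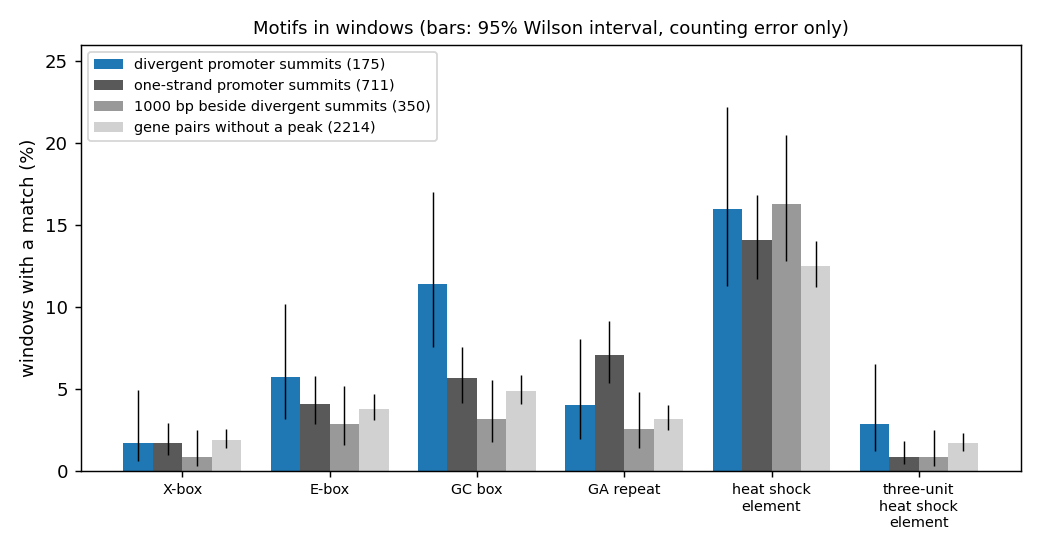
Percentage of 201-bp windows with a match to each motif, for 175 divergent promoter summits, 711 one-strand promoter summits, 350 windows 1000 bp beside the divergent summits and 2214 head-to-head gene pairs without a peak; bars are 95% Wilson intervals, for counting error only. The X-box shares of divergent and one-strand summits are 1.71% and 1.69%.

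A survey of all 2080 six-letter words, with a word and its reverse complement counted as 1, compared the same divergent and one-strand windows. It was added after the data had been seen. With two-sided Fisher's exact tests, adjusted over the 2080 by Benjamini and Hochberg, 13 words were called at an adjusted p under 0.05 (0.625%), and 217 had an unadjusted p under 0.05. Of the 13, 12 were more frequent at divergent summits, and 10 held a CG step. The share of words with a CG step among all 2080 was not counted, so nothing is read from the 10. The number of CG steps in a window had a median of 10 at divergent summits and 8 at one-strand summits. At pairs without a member it was 6. GC content was a median of 39.8% in divergent windows and 38.3% in one-strand windows. Base composition and CG steps thus move with the result, and their part was not tested.

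CGCAAA was in 39 divergent windows (22.3%) and 73 one-strand windows (10.3%, adjusted p = 0.0335, same exact test), and in 12.1% of pairs without a member. GCGCCA was in 16.6% of divergent and 6.61% of one-strand windows (adjusted p = 0.0391), and ACGGTA in 13.1% and 4.08% of them (adjusted p = 0.0335), all by the same exact test. CGCTCC was in 12.6% of divergent and 3.94% of one-strand windows (adjusted p = 0.0335, same exact test), and 5.28% of pairs without a member. The words AAAATT and AAAAAT, higher at divergent than at one-strand summits, were as frequent or more so at pairs without a member: AAAATT was in 67.4% of divergent windows, 50.5% of one-strand windows and 71.9% of pairs without a member. AGTAAT was the 1 word lower at divergent summits, with 2.29% against 10.7% of one-strand windows (adjusted p = 0.0391, same exact test).

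The word calls were not stable. With summits outside protein-coding genes only, with windows of 50 bp on each side, with an IDR of 0.01 or less, or with either replicate's own list, 0 words were called, at 116 to 191 words with an unadjusted p under 0.05 by the same exact test. Apart from the 50 bp setting, these had fewer divergent windows than the 175 of the main survey. There were 116 outside protein-coding genes, 78 at the lower IDR, 72 with replicate 1 alone and 71 with replicate 2 alone. With fewer windows, a difference of the same size is less likely to pass. All 13 words kept the direction of their difference in all of these settings, except GCGCAA without replicate 2. The settings reuse the windows or libraries that gave the words, so the kept direction is no separate support. In the printed windows, which are among those that gave the words, the rpl-20, tasp-1 and rpl-15 summits hold several of them. The F44E5.4 and F44E5.5 summit holds none.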

How the data were processed

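Peaks of 2 biological replicates were analysed from 8 deposited lists on assembly ce11 (per the labels). The deposited signal of each peak is the authors' own, with a scaling that is not stated. The deposited −log10 IDR values are also the authors'. The aligner, peak caller and read filters were not given in the sources used here, and the control experiment was not analysed here. The 8 unnamed columns after the 12th were not used.

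Here, summits were placed on the Ensembl release 115 annotation and the RefSeq WBcel235 sequence, whose chromosome lengths hold every peak. The signal of a replicate was read from its separate ranked list, at the highest peak that covers the pooled summit. Members, gene lists and motifs were chosen with earlier results of these data known, and 6 symbols that their lists' patterns had caught by mistake were removed after the peaks had been seen. The 21 lists were made by gene symbol. The text names the 15 strongest peaks, the 3 on each side of the IDR minimum, up to 4 genes a list by signal, every ribosomal protein, histone, HSP70 and ciliary gene, peaks with an X-box, and the 5 extremes of replicate ratio and of distance between starts. Peaks with a three-unit heat shock element, the 7 peaks with a signal under 40, and pgl-1, eef-1G, rsp-5 and snr-3, were named after their values were seen.

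X-box shares and six-letter words were compared by Fisher's exact test over peaks. Neighbouring peaks are not independent, so p-values and Wilson intervals of 95% cover counting error only. Files hold no counts, so depth is unknown. The alternatives were another IDR minimum, the second pooled list, each replicate alone, other windows, starts and distances, and merged peaks. The word search was tested on simulated data. The work used matplotlib 3.10.9, scipy 1.17.1, pandas 2.3.3 and numpy 2.4.6 under Python 3.11.15.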

Additional observations from a re-analysis of the deposited data

How the results depend on the processing

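The number of divergent promoter peaks was 175, and 153 to 215 under 8 alternatives. It fell to 78 with an IDR of 0.01 or less and to 96 with windows of 500 bp upstream to 100 bp downstream, both of which keep a part of the members by construction. It ranged from 71 to 72 with either replicate's list alone, and the cause was not tested. Of the members, 132 (75.4%) had a peak in the second pooled list, 55 (31.4%) with replicate 1 alone and 49 (28.0%) with replicate 2 alone. The 15 strongest were all counted in every setting except the 500 bp window (9) and a distance of 500 bp to small RNA genes (14).

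The X-box difference, divergent minus one-strand in percentage points, was 0.0265 and passed in no setting (exact p from 0.103 to 1.00). It was −0.246 with 200 bp on each side, −5.78 with 1 mismatch allowed, −0.314 in the second pooled list, 0.884 with an IDR of 0.01 or less and −0.0132 with overlapping peaks merged, and ranged from −0.930 to 0.144 with either replicate left out. The cause was not tested. The looser consensus was defined after the files had been seen.

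The share of summits between the starts was 77.1%, and 68.6% by outermost starts and 84.6% with an IDR of 0.01 or less. With the distance in 3 equal parts, the share in the middle one was 48.1%, and 59.1% with an IDR of 0.01 or less. The rule raises this share at distances over 1000 bp, as said above. The other settings stayed near the main values, and the cause was not tested.

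All settings of the word survey were chosen after seeing the data. The 13 words became 17 with overlapping peaks merged, which held all 13. No word (0) was called with an IDR of 0.01 or less, with 50 bp on each side, with summits outside protein-coding genes only or without either replicate. Apart from the 50 bp setting, these had fewer divergent windows, as given above. GCGCAA ranged from −0.778 to 8.56 percentage points with either replicate left out, and was below 0 without replicate 2. Leaving out peaks with a signal under 40, also chosen after seeing the data, left 168 peaks.

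No paired analysis was possible because there was 1 group. Unknown depth limits every signal.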

Other observations

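Reading the strongest windows showed 2 strings that were then counted, with no test, because they were chosen from these sequences. The windows in which they were read are among those counted, which raises the divergent shares by construction. Those windows are among the strongest, so the splits by signal below repeat the choice, and nothing is read from them. CATACACT was within 100 bp of 4 of 175 divergent summits (2.29%), 0.703% of one-strand summits and 0.452% of head-to-head pairs without a member. Those 4 were the peaks of rpl-20 (539), K01G5.10 and tasp-1 (508), rpl-15 (449) and ifet-1 and rps-1 (261), 3 of which have a ribosomal protein gene and 2 copies of the string. All 4 were among the strongest 44 divergent peaks, and 0 of the other 131 windows held CATACACT. TCGATTTAC was at 7 of 175 divergent summits (4.0%), 0.563% of one-strand summits and 0.723% of pairs without a member. Its 7 peaks included rpl-20, rpl-15 and rps-12 (176), and the others were hat-1 and M03C11.3 (129), wht-3 and har-1 (101), clec-53 and uba-5 (88.5) and pdi-3 and ubql-1 (81.9). Of the strongest 44 divergent windows 4 held TCGATTTAC, as did 3 of the other 131.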
